A study of Mus musculus with 20 samples.

Results

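Tumours of the mouse melanoma line B16F10 differed in how much skeletal muscle RNA they carried, and the tumours richest and poorest in it were compared within their own treatment group. Ckm, the muscle creatine kinase gene, served as the marker: in each group the 2 tumours highest in Ckm were called rich, the 2 lowest were called poor, and the middle tumour was left aside. This gave 8 rich and 8 poor tumours of 20, with 4 middle tumours. The wild-type tumours grew in immunocompetent C57BL/6 mice, with treatment starting at about 100 mm3 and excision on day 16. The 4 groups of 5 tumours received propafenone with anti-PD-1 (the combination), anti-PD-1, propafenone, or control IgG, the design text placing IgG or anti-PD-1 with or without propafenone. Propafenone is a heart rhythm drug that acts on sodium channels, while the anti-PD-1 antibody blocks a checkpoint receptor of T cells. Rich and poor are not groups of the study: they were selected on the same libraries that are described, so every difference below describes what accompanied Ckm and not what a treatment did. The labels do not say which tumours came from separate animals, so p-values measure the spread between these tumours.

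Skeletal muscle fibres contract when calcium, released from an internal store, lets myosin thick filaments pull on actin thin filaments that are anchored in the Z disc. Creatine kinase regenerates the ATP that this consumes by moving phosphate from phosphocreatine to ADP, and mature fibres make large amounts of its messenger RNA, while melanoma cells are not known for it. In a bulk tumour library such transcripts can come from host tissue taken with the tumour, and fewer cells of a type cannot be told apart from less RNA per cell.

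Ckm (ENSMUSG00000030399) lies on the plus strand of mouse chromosome 7 at 19404776-19422841 in GRCm38. Its level is given as CPM, the count divided by the library total and multiplied by 1000000. In the combination group the rich tumours had 48.2 and 45.8 CPM and the poor tumours 39.8 and 7.03 CPM, with 43.6 CPM in the middle tumour. In the anti-PD-1 group the rich tumours had 23.6 and 11.97 CPM and the poor tumours 9.95 and 1.43 CPM, with 10.3 CPM in the middle. In these 2 groups a single tumour was far below the other 4, and the upper poor tumour was close to the middle one. In the propafenone group the rich tumours had 5.38 and 5.29 CPM and the poor tumours 2.03 and 0.209 CPM, with 4.14 CPM in the middle. There too a single tumour, at 0.209 CPM, was many-fold below the other 4. In the IgG group the rich tumours had 3.17 and 1.91 CPM and the poor tumours 1.70 and 1.07 CPM, with 1.76 CPM in the middle. The lower rich tumour exceeded the upper poor tumour 1.15-fold in the combination group, 1.20-fold in the anti-PD-1 group, 2.60-fold in the propafenone group and 1.12-fold in the IgG group. These values chose the tumours and carry no test. Rich names a rank within a group: the poor tumours of the combination group held more Ckm than the rich tumours of the IgG group.

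**Figure D1:**
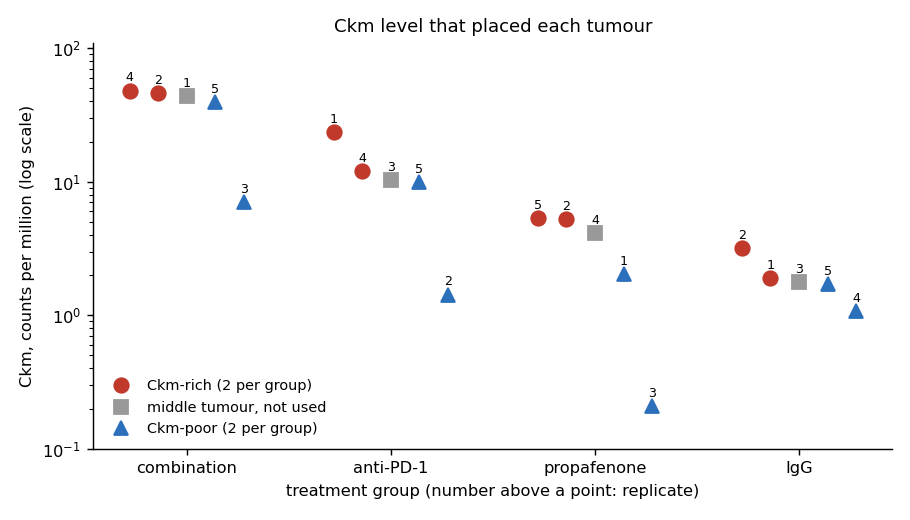
Ckm in CPM (log axis) in each of the 20 tumours, by treatment group, ordered from high to low within the group; circles are rich, squares middle and triangles poor tumours, and the number above a point is the replicate. The combination, anti-PD-1 and propafenone groups each have 1 tumour, at 7.03, 1.43 and 0.209 CPM, well below the other 4. The IgG values lie close together between 1.07 and 3.17 CPM.

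Most tumours kept their side when ranked by another muscle gene or by Ckm in other units. Ranking by Acta1, the skeletal muscle actin gene, kept 6 of the 8 rich and 7 of the 8 poor tumours and moved 1 tumour, IgG replicate 4, from poor to rich. Ranking by Ckm in the deposited TPM values, which scale counts by transcript length and depth, kept 8 rich and 7 poor tumours and moved none across. This is the same gene in the same libraries, so it is not a separate check.

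The libraries held 55985437 to 64514815 counts each, and within-group correlations of log2(CPM + 1) were between 0.979 and 0.997. Hbb-bs, a haemoglobin gene that marks blood, exceeded 1000 CPM in 5 tumours, of which 3 were poor, 1 rich and 1 middle, and the main test below gave 0 genes without these tumours too.

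Promoter windows are shown for Ckm and for 2 of the 10 genes whose levels followed Ckm most closely (described below), the calcium pump gene Atp2a1 and Nrap, which codes for a nebulin-related anchoring protein. Each is the RefSeq window from 250 bases before to 50 bases after the gene start in GRCm38.p6, written 5′ to 3′ on the gene's strand. For Ckm the RefSeq start lies inside the wider GENCODE gene given above, so its window belongs to that inner start. Capitals mark CAGCTG, a palindrome of the E-box type that muscle transcription factors such as MyoD can bind. The windows are chr7:19410844-19411143 on the plus strand for Ckm, chr7:126463024-126463323 on the minus strand for Atp2a1 and chr19:56389989-56390288 on the minus strand for Nrap.
Ckm: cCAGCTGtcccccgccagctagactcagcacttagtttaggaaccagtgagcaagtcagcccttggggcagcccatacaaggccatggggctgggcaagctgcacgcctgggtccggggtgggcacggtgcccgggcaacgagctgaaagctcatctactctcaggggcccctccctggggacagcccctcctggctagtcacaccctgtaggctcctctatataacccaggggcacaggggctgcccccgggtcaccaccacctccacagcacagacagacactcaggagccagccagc
Atp2a1: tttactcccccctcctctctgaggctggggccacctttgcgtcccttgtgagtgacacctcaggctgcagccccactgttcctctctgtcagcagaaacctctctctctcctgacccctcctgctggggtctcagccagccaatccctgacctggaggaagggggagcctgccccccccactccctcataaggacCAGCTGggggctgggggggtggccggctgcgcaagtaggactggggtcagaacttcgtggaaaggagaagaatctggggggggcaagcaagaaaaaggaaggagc
Nrap: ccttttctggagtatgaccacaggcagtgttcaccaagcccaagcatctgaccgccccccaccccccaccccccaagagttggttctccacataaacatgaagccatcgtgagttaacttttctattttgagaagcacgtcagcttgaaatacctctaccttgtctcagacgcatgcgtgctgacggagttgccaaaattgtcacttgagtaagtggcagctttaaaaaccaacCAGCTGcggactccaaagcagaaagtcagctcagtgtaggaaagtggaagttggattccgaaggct
Each window holds CAGCTG 1 time. The letters occur, on either strand, in 35 of the 78 windows found for genes of the 6 muscle lists with Ckm (44.9%) and in 1890 of the 11921 windows found for all genes tested (15.9%). Windows were at hand for 6 of the 10 genes, and those of Tnnc2, Mybpc2, Actn2 and Myh1 held no CAGCTG; Car3, Tnni2, Myoz1 and Tcap were not analysed here. A match describes the sequence and is not a mapped binding site.

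No gene passed the test between rich and poor tumours. With edgeR's quasi-likelihood test and group as a block, 0 of 15874 genes (0%) had a Benjamini-Hochberg adjusted p under 0.05, and the smallest adjusted p was 0.66. At an unadjusted p under 0.05 there were 1151 genes, with 629 higher (3.96% of those tested) and 522 lower in rich tumours (3.29%). The median log2 fold change over all genes was -0.0046, and 48.5% of genes were above 0. DESeq2 on the same libraries called 5 genes (0.0315%), and limma voom called none, with 1214 genes at an unadjusted p under 0.05.

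The contractile apparatus of skeletal muscle had the largest fold changes of the muscle lists, in step with Ckm. Log2 fold changes of rich over poor tumours were above 0 for 12 of 13 thick filament genes tested, with a median of 1.60, and for 13 of 13 thin filament genes, with a median of 1.12. The same held for 24 of 27 Z disc and cytoskeleton genes, with a median of 1.37, and for 17 of 18 calcium handling genes, with a median of 0.89. Genes of regulators and developing muscle were above 0 in 7 of 9 cases, with a median of 0.73. Muscle energy metabolism stood lower, with 13 of 17 genes above 0 and a median of 0.15. Muscle-list genes were listed for roles in muscle, like Ckm, on which the tumours were chosen, so these counts are descriptions without p-values. Not all of their RNA followed Ckm. The energy metabolism sum had a median of 1123 CPM in rich and 1062 CPM in poor tumours. It was 1337 CPM in propafenone replicate 3, which had 0.209 CPM of Ckm. The sum for regulators and developing muscle had medians of 212 and 219 CPM. The median fold change of each muscle list kept its sign in 35 alternative fits. Genes of 1 family with similar sequences, such as the myosin heavy chains or Acta1 and Actc1, may share reads, since the counting method is not given in the sources used here.

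Of the thin filament, Acta1 is the actin of the fibre and Tnnt3 the fast troponin T that ties the calcium switch to tropomyosin. Acta1 had a lowest, median and highest value of 1.5, 62.9 and 211 CPM in rich tumours, against 0.205, 5.93 and 134 CPM in poor tumours. Its log2 fold change was 1.86 ± 0.85 (SE, n = 8 tumours each). Both rich tumours exceeded both poor tumours in 3 of 4 groups, and the exception was IgG. There the rich tumours had 30.8 and 1.5 CPM and the poor tumours 0.205 and 5.43 CPM, so Acta1 and Ckm ordered the IgG tumours differently. IgG replicate 1, rich by Ckm, was below both poor tumours in summed thin filament CPM (15.7 against 17.3 and 16.0). The same held for the Z disc (258 against 291 and 280) and calcium handling (60.6 against 68.1 and 63.6). Its thick filament sum lay between theirs (6.08 against 10.3 and 4.40). The Z disc and calcium handling sums are weak measures of fibre RNA. Jph2 of the calcium handling list had a lowest value of 43.1 CPM in rich and 41.4 CPM in poor tumours. Its slope on Ckm was -0.15. The Z disc sum was still 331 CPM in anti-PD-1 replicate 2, where the thick filament sum was 4.34 CPM. Tnnt3 had a lowest, median and highest value of 0.264, 11.3 and 39.1 CPM in rich tumours, against 0, 1.22 and 25.9 CPM in poor tumours. It was at 0 in 2 poor tumours, and a count of 0 at these depths allows up to 0.0465 to 0.0536 CPM (3 counts, counting error only).

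Of the thick filament and Z disc, Myom1 codes for myomesin, which cross-links myosin at the M band, and Myot for myotilin, which binds actin crosslinkers in the Z disc. Myom1 had a lowest, median and highest value of 1.9, 3.86 and 9.22 CPM in rich tumours, against 1.27, 1.62 and 6.57 CPM in poor tumours, a log2 fold change of 0.84 ± 0.23 (SE). Myot had 0.0659, 1.56 and 4.25 CPM in rich tumours, against 0, 0.0892 and 1.89 CPM in poor tumours, a log2 fold change of 2.62 ± 0.73 (SE). For both genes the rich tumours were above the poor tumours in all 4 groups. Of calcium handling, Ryr1, the release channel of the sarcoplasmic reticulum, had 1.62, 4.63 and 8.6 CPM in rich tumours, against 0.897, 1.64 and 7.08 CPM in poor tumours. Ryr1 too was above in all 4 groups, with a log2 fold change of 1.03 ± 0.31 (SE). Jph2, a junctophilin that couples the surface membrane to the calcium store, went the other way with -0.27 ± 0.08 (SE) at a median of 44.3 CPM in rich and 54.3 CPM in poor tumours.

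Energy metabolism genes varied among themselves. Mb, the oxygen-binding protein myoglobin, had a lowest, median and highest value of 0, 2.16 and 7.12 CPM in rich tumours, against 0, 0.171 and 2.45 CPM in poor tumours. Pygm, the muscle glycogen phosphorylase, had 10.4, 14.5 and 20.9 CPM in rich tumours, against 9.12, 12.7 and 20.4 CPM in poor tumours. The Mb groups were apart in 3 of 4 treatment groups with a log2 fold change of 2.22 ± 0.97 (SE), while Pygm gave 0.15 ± 0.18 (SE) and its ranges overlapped almost entirely. Among markers of muscle stem cells and regulators, Pax7 had no count in any of 20 tumours. Myod1, a master regulator of muscle fate, was too low to be tested, and so was the slow fibre myosin Myh7, which was at 0 in all 8 poor tumours and at 0 to 0.239 CPM in the rich tumours. Myog, a late differentiation factor, gave 1.05 ± 0.81 (SE).

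**Figure D2:**
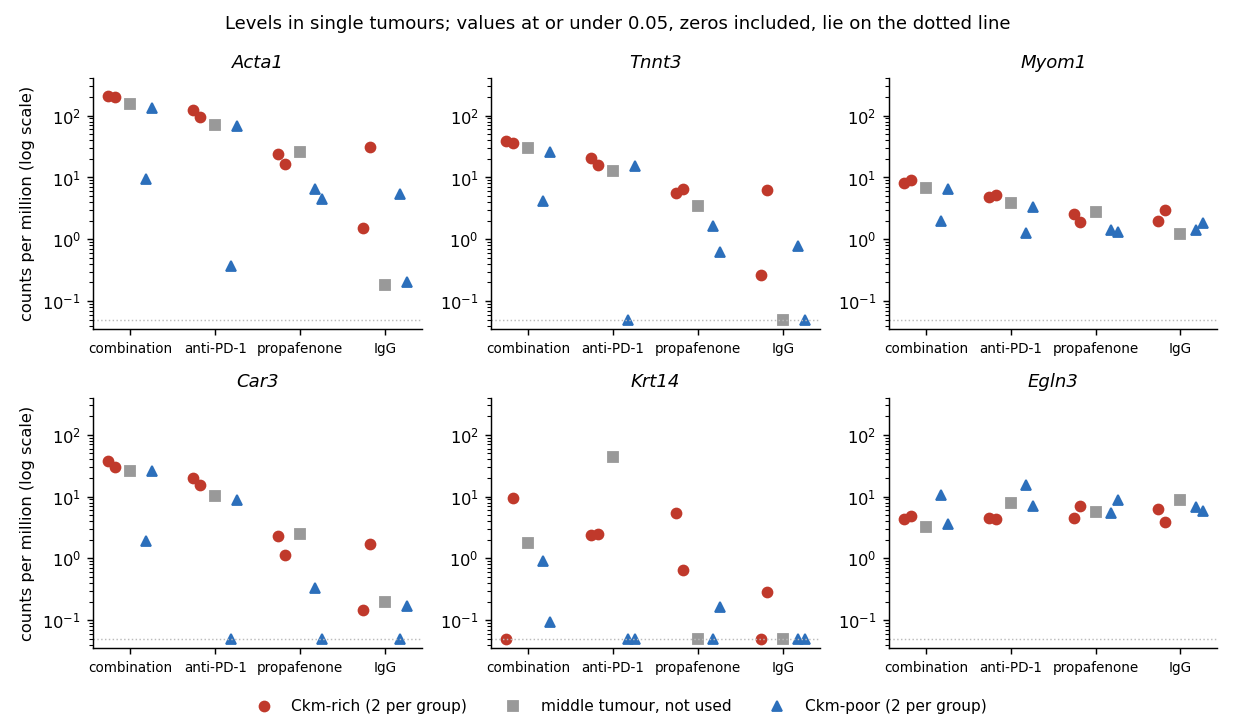
CPM (log axis) of 6 genes in single tumours by treatment group; circles are rich, squares middle and triangles poor tumours, and values at or under 0.05 CPM lie on the dotted line. Acta1, Tnnt3 and Car3 span several orders of magnitude and the lowest value of each group lies in a poor tumour except in IgG, where middle tumours share or hold the lowest Acta1 and Tnnt3, Myom1 separates rich from poor in all 4 groups, Krt14 is at 0 in many tumours, and Egln3 is highest in a poor tumour of the anti-PD-1 group, at 15.3 CPM.

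The 10 genes most like Ckm were found by the Pearson correlation of log2(CPM + 1) over the 20 tumours after group means were removed, among genes averaging at least 1 CPM. The points share library depth and scaling, and the values are descriptions. Car3, carbonic anhydrase 3 of muscle and fat, came first at r = 0.94. Tnnc2 and Tnni2, fast troponin C and I, followed at 0.94 and 0.93. The others were Mybpc2, Myoz1, Actn2, Tcap, Atp2a1, Nrap and Myh1, down to r = 0.91. All of the 10 but Car3 belong to the muscle lists.

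Markers of other tissues that a tumour sample could hold were set beside the split, and for all of them 0 genes passed the adjusted threshold in edgeR. Keratinocyte genes, of the skin, had the largest median of any list, with 17 of 17 above 0 at a median log2 fold change of 2.52. Of these, 10 had an unadjusted p under 0.05, all higher in rich tumours. Krt14, the keratin of basal epidermis, had a lowest, median and highest value of 0, 1.53 and 9.64 CPM in rich tumours, against 0, 0 and 0.897 CPM in poor tumours. It was at 0 in 2 rich and 5 poor tumours, with a log2 fold change of 4.84 ± 1.25 (SE, edgeR adjusted p = 0.66). The highest level of Krt14, 43.1 CPM, lay in the middle tumour of the anti-PD-1 group, which the split does not use. The summed level of the keratinocyte list was 16.5, 22.6 and 74.8 CPM at its lowest, median and highest in rich tumours, against 12.9, 15.5 and 28.6 CPM in poor tumours. Its part in the result was not tested.

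Tendon and fat genes pointed the same way with smaller median fold changes. All 4 tendon genes tested were above 0, with a median of 0.68, among them Scx, a tendon transcription factor, at 0.78 ± 0.29, and Thbs4, a matrix protein of tendon and muscle, at 1.99 ± 0.72 (SE, edgeR adjusted p = 0.66 for both). Of 13 adipocyte genes, 12 were above 0, with a median of 0.31, and 3 had an unadjusted p under 0.05. Car3 had a lowest, median and highest value of 0.148, 8.86 and 37.5 CPM in rich tumours, against 0, 0.253 and 25.9 CPM in poor tumours. It was at 0 in 3 poor tumours, and its log2 fold change was 2.21 ± 0.89 (SE, edgeR adjusted p = 0.66). Adipoq, the fat hormone adiponectin, was scarcer, with a highest value of 1.95 CPM in rich and 1.53 CPM in poor tumours.

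Most matrix, vessel and blood genes had fold changes below 0. Of 24 fibroblast and matrix genes, 22 were below 0, with a median of -0.40, and 6 had an unadjusted p under 0.05, while the median was -0.04 with the tumours ranked by Acta1. Col1a1, the main chain of type I collagen, had 51.1, 67.2 and 138 CPM at its lowest, median and highest in rich tumours, against 36.3, 127 and 286 CPM in poor tumours. Its rich tumours lay below the poor tumours in 3 groups and above them in the propafenone group, with a log2 fold change of -0.75 ± 0.32 (SE, edgeR adjusted p = 0.66). Smooth muscle and pericyte genes were below 0 in 12 of 13 cases (median -0.32), and endothelial genes in 12 of 14 (median -0.16), each with 2 genes at an unadjusted p under 0.05. The endothelial median was -0.0013 with the tumours ranked by Acta1, and 8 of 14 endothelial slopes on Ckm were above 0 (median 0.02). All 7 red blood cell genes were below 0 with a median of -1.18 and none at an unadjusted p under 0.05. Hbb-bs, adult beta globin, had 86.0, 150 and 1851 CPM at its lowest, median and highest in rich tumours, against 59.6, 317 and 2944 CPM in poor tumours. The red blood cell median was 0.03 without the IgG group.

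**Figure D3:**
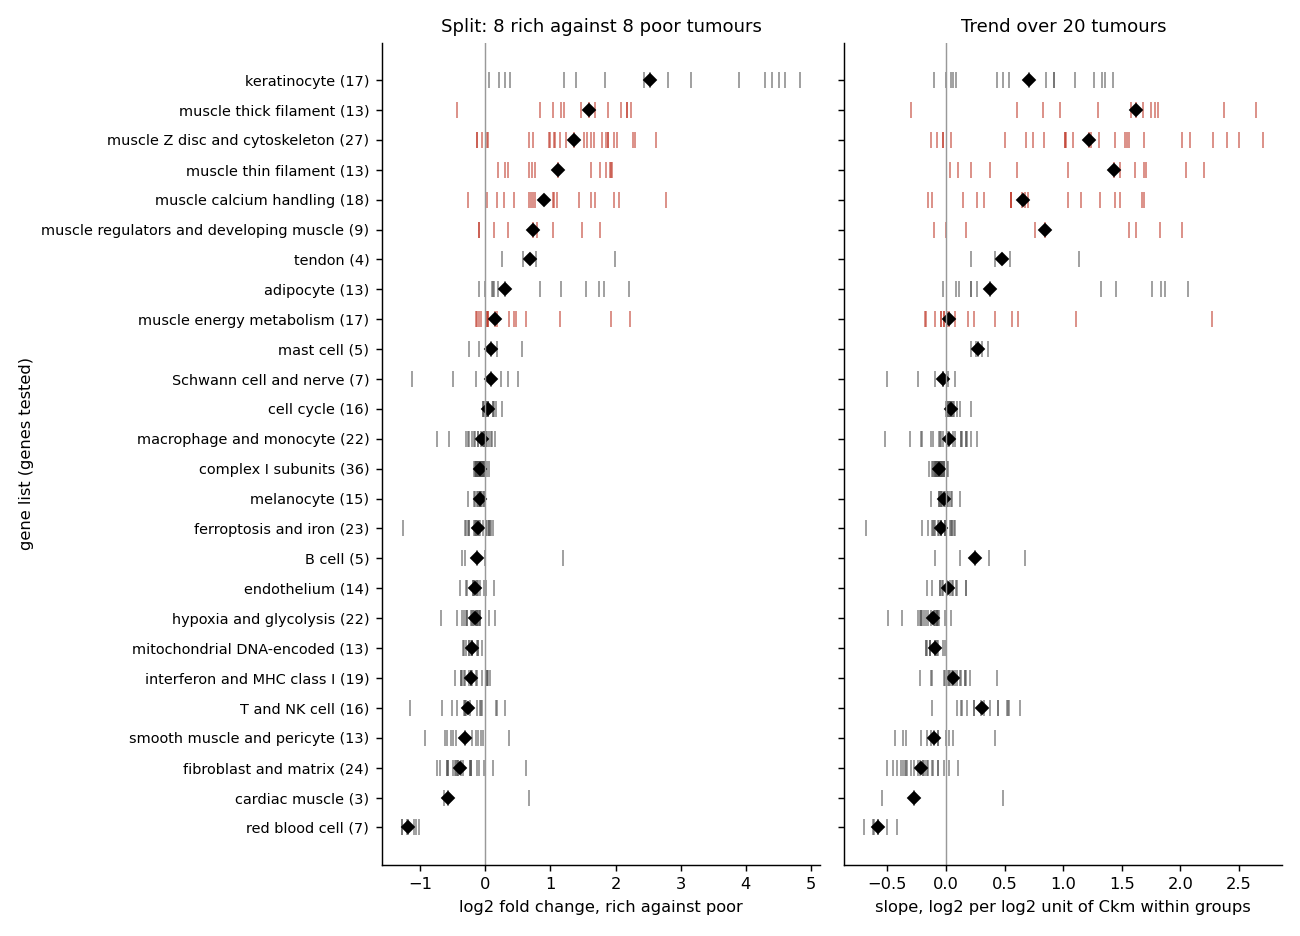
Log2 fold changes of rich over poor tumours (left) and slopes on log2 Ckm over 20 tumours (right) for each tested gene of 26 lists; ticks are genes, red for the 6 muscle lists, and diamonds are list medians. Keratinocyte genes (2.52) lie highest on the left, followed by the thick filament (1.60), Z disc and cytoskeleton (1.37) and thin filament (1.12) lists, and red blood cell genes lowest (-1.18), while on the right the keratinocyte median is 0.70, below 4 of the muscle lists.

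In the immune, tumour cell, cell cycle and ferroptosis lists 0 genes passed the adjusted threshold, and several medians changed sign between fits. Macrophage and monocyte genes had a median of -0.06 and T and NK cell genes of -0.26, with 0 of 22 and 0 of 16 genes at an unadjusted p under 0.05. With the tumours ranked by Acta1, the medians were 0.50 and 0.52. Over all 20 tumours, in the fit on the amount of Ckm described below, 15 of 16 T and NK cell slopes were above 0 (median 0.31, 1 at an unadjusted p under 0.05), against 3 of 16 fold changes above 0 in the split. Interferon and MHC class I genes had a median of -0.22, also with 0 of 19, but 0.16 with the tumours ranked by Acta1 and 0.19 with the replicate number as a further block, and 14 of 19 slopes on Ckm were above 0 (median 0.06). All 15 melanocyte genes were below 0, with a median of -0.08 and 2 at an unadjusted p under 0.05, but the median was 0.09 with the tumours ranked by Acta1, and 6 of 15 slopes on Ckm were above 0. Their summed level was 17726, 20396 and 24257 CPM at its lowest, median and highest in rich tumours, against 17543, 22106 and 24943 CPM in poor tumours, so melanocyte RNA was abundant in every tumour compared. Cell cycle genes had a median of 0.03, with 13 of 16 above 0 and 2 at an unadjusted p under 0.05. Ferroptosis and iron genes, the process named in the study's title, had a median of -0.11, with 15 of 23 below 0 and 3 at an unadjusted p under 0.05.

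Most genes of mitochondrial respiration and of hypoxia and glycolysis had small fold changes below 0. All 13 genes encoded by mitochondrial DNA were below 0, with a median of -0.21, and 9 had an unadjusted p under 0.05. mt-Atp8, a subunit of ATP synthase, had 765, 902 and 1012 CPM at its lowest, median and highest in rich tumours, against 996, 1041 and 1485 CPM in poor tumours. Its rich tumours were below its poor tumours in all 4 groups, with a log2 fold change of -0.35 ± 0.09 (SE, edgeR adjusted p = 0.66). Nuclear genes for complex I of the respiratory chain were below 0 in 34 of 36 cases, with a median of -0.08 and 4 at an unadjusted p under 0.05. Hypoxia and glycolysis genes were below 0 in 20 of 22 cases, with a median of -0.16 and 8 at an unadjusted p under 0.05. None of these genes passed the adjusted threshold, and the 3 medians kept their sign in 35 alternative fits, many of which share most libraries. The complex I median was -0.04 with library totals as scaling. In the fit on the amount of Ckm described below, 34 of 36 complex I slopes were below 0 (median -0.06). That median was 0.0047 without the tumour lowest in Ckm of each group.

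Outside the muscle lists, genes with the smallest p among those averaging at least 1 CPM are named although none passed, and each had an edgeR adjusted p of 0.66. Gask1b, a Golgi-associated kinase family member, had 290, 319 and 389 CPM at its lowest, median and highest in rich tumours, against 319, 399 and 420 CPM in poor tumours, a log2 fold change of -0.32 ± 0.07 (SE). Kctd12, a subunit of GABA-B receptors, gave -0.51 ± 0.12 (SE), and for both genes the rich tumours lay below the poor tumours in 3 of 4 groups. In the other direction Kmt2d, a histone H3 lysine methyltransferase, had 45.1, 51.0 and 58.7 CPM at its lowest, median and highest in rich tumours, against 29.6, 37.4 and 53.5 CPM in poor tumours, a log2 fold change of 0.37 ± 0.07 (SE). Fam193b gave 0.34 ± 0.08 and Ankrd23 0.80 ± 0.20 (SE), and both were higher in the rich tumours of all 4 groups. Ankrd23, a titin-binding ankyrin repeat protein of muscle, had 6.33, 9.07 and 11.2 CPM in rich tumours, against 2.45, 4.73 and 10.4 CPM in poor tumours. Among the 5 genes that DESeq2 called were Kmt2d (adjusted p = 0.019) and Gask1b (adjusted p = 0.024), and also Tomt and Pcdhgb4 (adjusted p = 0.024 for both), which the naming rule does not cover.

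Both rich tumours were above both poor tumours in all 4 groups for 30 genes (0.189% of those tested) and below them for 9 (0.0567%). With so few tumours in each group, some genes would separate in all 4 groups by chance, in either direction. That number was not worked out, so neither count is evidence of a difference. Being among the 30 or the 9 only describes these tumours. The 30 included 4 muscle-list genes, Myom1, Ryr1, Myot and the Z disc gene Tcap, and 26 others. The 9 held no muscle-list gene and included mt-Atp8. Cald1 and Tpm4, an actin-binding caldesmon and a tropomyosin of non-muscle cells, were also among the 9, with log2 fold changes of -0.38 and -0.22, named after their values were seen.

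A second description used all 20 tumours and the amount of Ckm, not only its rank: log2(Ckm CPM + 1), centred within each group, was fitted beside the 4 group means. The slope is the change in a gene's log2 level per log2 unit of Ckm within groups. With edgeR, 98 genes had an adjusted p under 0.05, with 62 higher (0.391% of those tested) and 36 lower (0.227%) as Ckm increased. Of the 98, 32 belong to the muscle lists (31 higher, and Jph2 lower) and 66 do not (31 higher and 35 lower). The 66 include genes known from muscle that were left off the lists, such as Fhl1 and Ankrd1. At an unadjusted p under 0.05 there were 2345 genes, 7.27% higher and 7.5% lower. The median slope over all genes was 0.0020.

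Car3 (chromosome 3, 14863512-14872523, GRCm38) rose by 2.06 ± 0.31 per log2 unit of Ckm (SE, n = 20, edgeR adjusted p = 0.0055). Its lowest value in each group lay in the tumour poorest in Ckm, with 1.91 CPM in the combination group and 0 in the anti-PD-1, propafenone and IgG groups. Fhl1, a LIM-domain protein of striated muscle, rose by 1.37 ± 0.20 (SE). Other genes known from muscle but not on the lists rose too. They were Ankrd1 by 1.58 ± 0.33, Cmya5 by 0.75 ± 0.16 and Ankrd23 by 0.46 ± 0.09 (SE). Itga7, the integrin that binds muscle fibres to laminin, rose by 0.31 ± 0.07 (SE). Like the muscle lists, these genes and Car3 were likely in advance to follow Ckm. Passing the threshold is therefore no separate support for them. Of the adipocyte list 4 of 13 genes rose, namely Car3, Cfd, Adipoq and Plin4. Cfd, the fat-secreted complement factor D, rose by 1.83 ± 0.33 (SE, edgeR adjusted p = 0.017). Mup22, a major urinary protein gene whose near-identical copies make its count uncertain, rose by 2.29 ± 0.42 (SE, edgeR adjusted p = 0.020). Smaller slopes belonged to Tnrc6a, Prtg, Chd1 and Clip1, from 0.15 to 0.23. Of the keratinocyte genes 15 of 17 had slopes above 0, with a median of 0.70 (2.13 without combination replicate 3) and 0 of 17 past the adjusted threshold (1 at an unadjusted p under 0.05).

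Genes that fell as Ckm increased included Egln3 of the hypoxia list. Egln3, a prolyl hydroxylase that marks hypoxia-inducible factor for destruction and is itself induced by it, fell by 0.50 ± 0.08 per log2 unit (SE, n = 20, edgeR adjusted p = 0.0046). It had a lowest, median and highest value of 3.95, 4.49 and 7.14 CPM in rich tumours, against 3.63, 6.98 and 15.3 CPM in poor tumours. Its highest values lay in the tumours poorest in Ckm, 15.3 CPM in the anti-PD-1 group and 10.6 CPM in the combination group. Of the 22 hypoxia and glycolysis genes, 21 had slopes below 0, with a median of -0.11 and 17 at an unadjusted p under 0.05, but Egln3 was the only 1 past the adjusted threshold. Loxl2, a collagen-crosslinking lysyl oxidase, had 46.7, 63.5 and 107 CPM at its lowest, median and highest in rich tumours, against 66.1, 102 and 134 CPM in poor tumours. Its slope was -0.36 ± 0.07 (SE, edgeR adjusted p = 0.023). Bmp1, a procollagen protease, Sparc, a collagen-binding matrix protein, and Htra3, a secreted protease, had slopes of -0.26, -0.26 and -0.43 (edgeR adjusted p from 0.0075 to 0.024). The other named genes were Lrp1, Ampd3, Pacs1, Mgat3, Creb3l1, Kank4 and Rtn4rl2, with slopes from -0.51 to -0.17. The fibroblast and matrix list, with 22 of 24 slopes below 0 and a median of -0.21, had none past the adjusted threshold.

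The Egln3 promoter window is shown because Egln3 was the hypoxia gene that passed. It covers chr12:54203825-54204124 on the minus strand in GRCm38.p6, from RefSeq, 250 bases before to 50 after the gene start, and capitals mark ACGTG, the core letters of the element that hypoxia-inducible factors bind.
Egln3: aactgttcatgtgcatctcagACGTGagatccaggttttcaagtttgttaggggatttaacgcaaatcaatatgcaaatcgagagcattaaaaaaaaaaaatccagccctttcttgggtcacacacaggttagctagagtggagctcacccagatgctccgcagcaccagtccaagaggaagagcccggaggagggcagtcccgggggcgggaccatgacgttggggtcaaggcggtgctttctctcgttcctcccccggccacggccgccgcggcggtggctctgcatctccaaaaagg
The window holds these letters 1 time. On either strand they occur in 12 of 20 windows found for the hypoxia and glycolysis list (60%) and in 2984 of 11921 windows of all genes tested (25.0%).

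**Figure D4:**
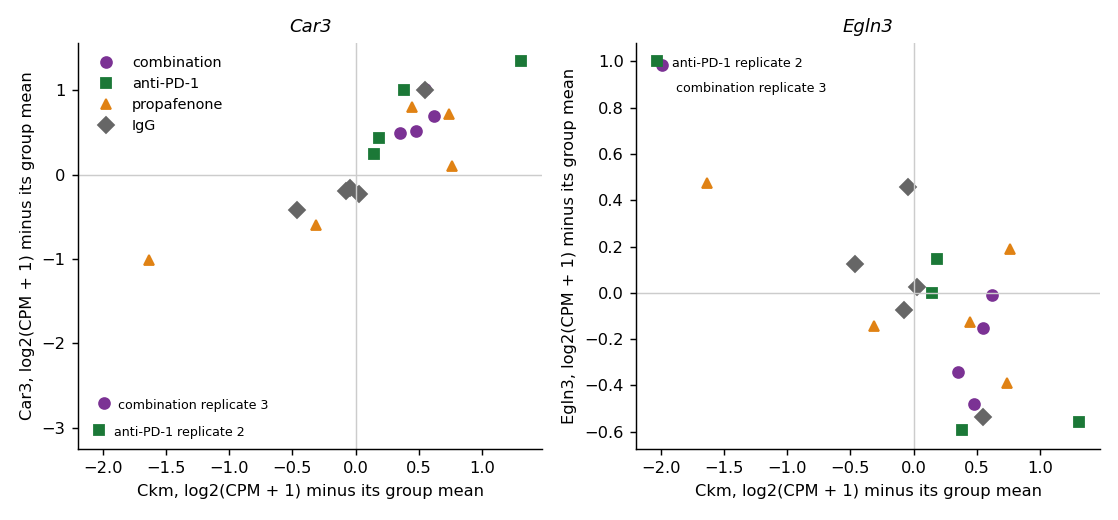
Car3 (left) and Egln3 (right) against Ckm, each as log2(CPM + 1) minus its group mean, 1 point per tumour; shapes and colours are the treatment groups. Replicate 2 of the anti-PD-1 group and replicate 3 of the combination group lie at the far left of both panels, low in Car3 and high in Egln3.

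The number of genes tied to the amount of Ckm rested on 2 tumours, replicate 2 of the anti-PD-1 group and replicate 3 of the combination group, the poorest in Ckm of their groups. Without the first, 1 of the 98 remained (Mup14), and without the second 4 did (Car3, Mup14, Myoz1 and Trdn). Leaving out any of the other 18 tumours gave 40 to 342 genes, with 342 when replicate 5 of the propafenone group was left out. Without the combination group there were 0 genes, and without the tumour lowest in Ckm of each group there were also 0. All 98 slopes kept their sign in each fit without 1 tumour, but only 92 of the 98 did without the tumour lowest in Ckm of each group. Egln3 had an edgeR adjusted p of 0.13 without anti-PD-1 replicate 2 and of 0.072 without combination replicate 3, with slopes of -0.45 and -0.46, and passed in the other 18 fits. Over 32 alternative fits its adjusted p ran from 7.6e-07 to 1.0. Car3 had 0.063 and 0.0095 in the same 2 fits, with slopes of 1.84 and 2.94, and its adjusted p ran from 4.5e-09 to 1.0. Of the 24 named genes, 0 passed without anti-PD-1 replicate 2 and 1 without combination replicate 3. Those 2 tumours also differed in other tissue markers: the first had 1419 CPM of Hbb-bs, against 109 to 257 CPM in the rest of its group, and both had the highest fibroblast and matrix sum of their groups. That sum was 1659 CPM in the first, against 710 to 1037 CPM in the rest of its group, and 2054 CPM in the second, against 1134 to 1240 CPM. With the level of Hbb-bs as a covariate the trend called 84 genes, and the part of the fibroblast and matrix genes in the trend was not tested.

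**Figure D5:**
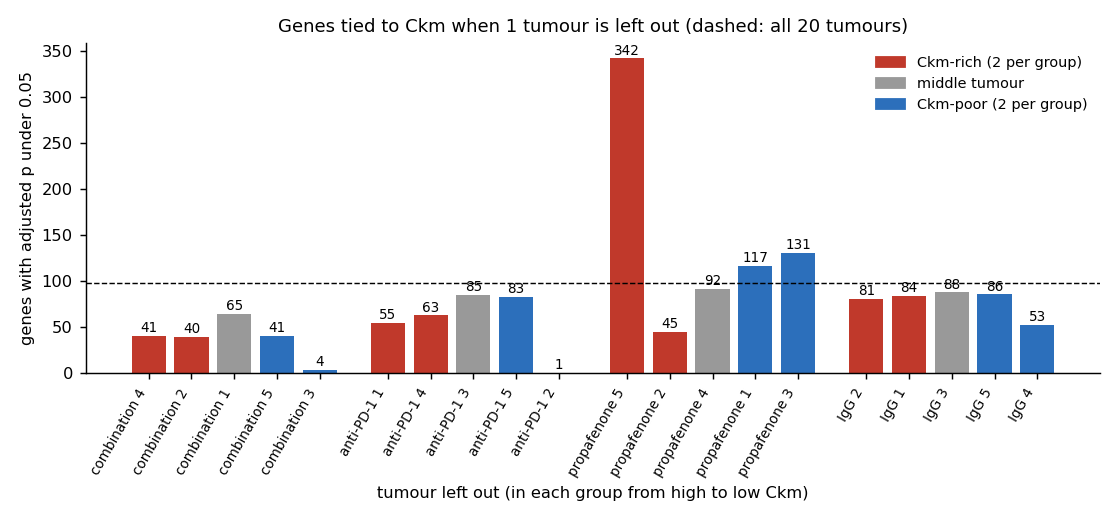
Number of genes with an adjusted p under 0.05 in the trend over Ckm when the named tumour is left out, by treatment group and from high to low Ckm; bar colour gives the tumour's class and the dashed line the 98 genes of all 20 tumours. The count drops to 1 without anti-PD-1 replicate 2 and to 4 without combination replicate 3, and is highest, 342, without propafenone replicate 5.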

How the data were processed

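Expected counts and TPM values per gene were deposited by the authors for 20 tumours, the expected counts being whole numbers already, so that rounding changed none. Libraries were made with a SMARTER mRNA-seq kit, per the labels. HISAT2 2.2.1 and SAMtools 1.9 are listed with FastQC in the submitters' processing notes, which give mm10 and GRCm38 as build. The counting tool, annotation and strand setting are not given in the sources used here. Counts of 4 and 8 were over-represented beside their neighbours, so a count may not equal a fragment. There were 11581 of 4 against 5505 of 3 and 5409 of 5, and 5131 of 8 against 4352 of 7 and 2861 of 9.

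CPM was the count over the library total (55985437 to 64514815). Ckm was removed and filterByExpr on the 4 treatment groups kept 15874 of 32285 genes, 99.98% of counts. edgeR 4.0.16 (R 4.3.3; TMM, robust quasi-likelihood) fitted treatment group plus rich against poor in 16 libraries (11 residual degrees of freedom), with Benjamini-Hochberg adjustment over all genes. DESeq2 1.42.0, limma 3.58.1, other scalings, filters, rankings, covariates and left-out libraries or groups were alternatives; the trend over 20 tumours was 1 of them, and its own alternatives, together with a split that omits tumours of over 1000 CPM of Hbb-bs, were chosen after seeing the data. The scripts were tested on simulated data. No column of values was left unused (0).

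Members and the 26 gene lists were chosen with earlier results of these data known. Outside the 6 muscle lists, the named genes were up to 12 per direction with the smallest p that passed, kept their direction without any 1 library and averaged at least 1 CPM, or the 3 smallest where fewer than 3 passed (1 of these is not reported here); up to 3 per list were named, and fixed panels of muscle and other genes. Genes with per-tumour values were picked for their roles, some after their values were seen. Positions are from GENCODE release 21 for mouse, which held 32235 of 32285 identifiers. No 2 columns were identical.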

Additional observations from a re-analysis of the deposited data

Results flagged for a closer look

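Within each group of 5 tumours the highest and lowest values were checked for standing apart from the other 4. For 49 genes and list sums, 196 checks gave 31 such values. The cut flags about 1 in 20 groups by chance where values are normally distributed. Skewed CPM values with zeros need not keep that share, so the 31 are not read as an excess. Genes of 1 tissue move together, so the checks are not independent. Replicate 2 of the IgG group, a rich tumour, stood high in muscle genes, with 30.8 CPM of Acta1, 6.33 CPM of Tnnt3, 0.599 CPM of Myot, 2.02 CPM of Mb and 1.70 CPM of Car3. Its list sums stood high for the thick filament (44.3 CPM), thin filament (68.5 CPM), Z disc (373 CPM) and tendon (10.5 CPM), and it had 0.291 CPM of Krt14.

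Replicate 3 of the combination group, a poor tumour, stood low in Ckm (7.03 CPM), Ryr1 (0.897 CPM), the thick filament sum (15.7 CPM), the Z disc sum (270.0 CPM), the tendon sum (7.40 CPM) and the sum of the 6 muscle lists with Ckm (1787 CPM). It stood high in Egln3 (10.6 CPM), Loxl2 (103.5 CPM), Col1a1 (285.5 CPM) and the fibroblast and matrix sum (2054 CPM). Replicate 2 of the anti-PD-1 group, also poor, stood high in Hbb-bs (1419 CPM), the red blood cell sum (5368 CPM) and Col1a1 (271.6 CPM).

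Krt14 stood high in replicate 4 of the combination group (9.64 CPM), replicate 3 of the anti-PD-1 group (43.1 CPM) and replicate 2 of the propafenone group (5.41 CPM). The keratinocyte sum stood high in the first 2 of these, at 74.8 and 153.1 CPM. Kctd12 stood high in replicate 4 of the propafenone group (40.3 CPM), Fam193b low in its replicate 3 (16.0 CPM), and the mast cell sum low in replicate 2 of the combination group (2.69 CPM).

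Col1a1 ran in opposite directions between groups: rich tumours were above poor tumours in the propafenone group and below them in the combination, anti-PD-1 and IgG groups. The log2 ratios of rich over poor means were up to 1.85 apart, and this difference was not tested.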

How the results depend on the processing

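The split gave 0 genes in every alternative but DESeq2, which called 5 (2 higher, 3 lower), and the trend over 20 libraries, which called 98 (62 higher, 36 lower). A replicate block gave 0 genes in the split. The deviations of tumours sharing a number correlated by -0.0085 on average over 30 pairs (-0.49 to 0.56) and 7 of 20 tumours were closest to their own number, so the numbers were not taken to pair tumours. The trend counts moved more. Genes higher with Ckm numbered 5 with a replicate block, 245 with DESeq2, 107 with limma on log2(TPM + 1), 0 without the tumour lowest in Ckm of each group, 0 without the combination group, 3 without the anti-PD-1 group and 107 without the propafenone group. Genes lower with Ckm numbered 0 with a replicate block, 89 with limma voom, 201 with DESeq2, 0 without the lowest tumours, 0 without the combination group, 0 without the anti-PD-1 group, 127 without the propafenone group and 17 without the IgG group. Leaving out 1 library gave 1 to 127 genes higher and 0 to 215 lower. Relative log expression size factors called 96 genes and library totals 86. Among the named genes, the slope of Htra3 turned to 0.14 without the lowest tumours. Where groups or tumours are left out, fewer libraries are tested; otherwise the cause was not tested. The keratinocyte median ranged from 0.33 to 3.89, the red blood cell median from -2.38 to 0.32 and the fibroblast and matrix median from -0.71 to -0.04 over 35 alternatives. Depth limits genes near 0.05 CPM, where 3 counts lie.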
